A study of Mus musculus with 6 samples.

Results

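The genes described here encode the subunits of the nuclear RNA polymerases I, II and III, and were taken as every symbol that starts with Polr1, Polr2 or Polr3 followed by a letter. Of the 24346 gene symbols measured, 28 met that rule. By the polymerase they serve, 3 belong to polymerase I only, 8 to polymerase II only and 10 to polymerase III only, 2 are shared by I and III, and 5 are shared by all 3 enzymes. RNA from blood platelets (labelled thrombocytes) of 2 groups of mice was sequenced. One group of 3 libraries came from mice homozygous for a knock-in allele, Beta3(R734C), which replaces an amino acid in the cytoplasmic tail of integrin β3, and the other 3 libraries came from wild-type mice. The labels give neither strain nor age, nor how many mice stand behind a library.

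RNA polymerase I makes the precursor of the large ribosomal RNAs, polymerase II makes messenger RNAs, and polymerase III makes transfer RNAs, 5S ribosomal RNA and other small RNAs. Platelets have no nucleus and therefore no nuclear transcription. The messenger RNAs for these enzymes in a platelet were made in the megakaryocyte, the marrow cell that sheds platelets, and the values below show which of them remain detectable and how their levels compare between the genotypes. Each enzyme has a core of a pair of large catalytic subunits, a heterodimer on which the core is assembled, a stalk of a pair of subunits, a small zinc-binding subunit, and a set of small subunits common to all 3 enzymes.

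Values are FPKM, fragment numbers scaled to the length of the transcript and the size of the library, and each library had 8383 to 9006 genes above 0. From the spacing of low values, the depth was very roughly 7900000 to 9400000 fragments a library, at which 1 fragment on a transcript of 1000 bases is worth 0.106 to 0.127 FPKM. An exact 0 can be a failed estimate, so such values are given only as listed at 0. All 9 platelet markers were measured, with a summed level of 45509 to 50518 FPKM in knock-in and 49419 to 51348 FPKM in wild-type libraries. That sum overlapped, but 3 of the 9 markers were called lower in the knock-in, each without overlap, and 0 higher: Itgb3, Gp1ba and Tubb1, with log2 fold changes of -0.49, -0.65 and -0.82 (limma adjusted p = 0.0190, 0.0139 and 0.00759), where 3.99% of all tested genes were called lower. Haemoglobin genes made up 20.4%, 3.20% and 4.04% of the total FPKM in knock-in libraries 1, 2 and 3, and 12.8%, 7.20% and 5.71% in wild-type libraries 1, 2 and 3. Markers of other blood cells were scarce apart from Lyz2, which alone gave 7205 to 9127 FPKM in knock-in and 7033 to 8240 FPKM in wild-type libraries. The other 8 monocyte markers reached at most 3.21 FPKM in any library. The neutrophil list summed to 0.727 to 2.08 FPKM in knock-in and 0.252 to 2.32 FPKM in wild-type libraries, and the B cell list to 0.456 to 0.837 FPKM in knock-in and 0 to 0.445 FPKM in wild-type libraries, with Elane, Mpo, Ms4a1 and Pax5 listed at 0 in all 6. The T and NK cell list summed to 5.06 to 8.83 FPKM in knock-in and 2.67 to 4.42 FPKM in wild-type libraries, nearly all of it Nkg7, with Cd3e at 0 in all 6 and 6 of its 10 genes at 0 throughout. The nuclear RNAs Malat1 and Neat1 summed to 6.23 to 9.58 FPKM in knock-in and 4.64 to 8.15 FPKM in wild-type libraries, and 9 cell division genes to 2.86 to 6.08 FPKM in knock-in and 1.60 to 3.32 FPKM in wild-type libraries. The part of these cells in the results below was not tested. In bulk platelet RNA, fewer platelets of a kind and less of an mRNA per platelet cannot be told apart.

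Polymerase subunit mRNAs were present in platelets as an uneven set: a few small or peripheral subunits were well measured and most large ones were near or at 0. Of the 28 genes, 14 were above 0 in all 6 libraries, 11 in 1 to 5 libraries and 3 in none. The 3 listed at 0 throughout were Polr1a, the large catalytic subunit of polymerase I, Polr3a, its counterpart in polymerase III, and Polr3e, a peripheral subunit of polymerase III. A mean of at least 1 FPKM over the 6 libraries, the limit for testing, was reached by 11 genes. These were 6 of the 8 genes of polymerase II only, 3 of the 5 shared by all enzymes, 1 of the 2 shared by I and III, 1 of the 10 of polymerase III only and 0 of the 3 of polymerase I only.

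The 6 genes for the large catalytic and second largest subunits (Polr1a, Polr1b, Polr2a, Polr2b, Polr3a and Polr3b) gave no tested gene, and 24 of their 36 library values were 0. Polr2a, the subunit of polymerase II that carries the heptad-repeat tail, was the one of them seen in every library. It measured 0.541, 0.779 and 0.302 FPKM in knock-in libraries and 0.573, 0.634 and 0.764 FPKM in wild-type libraries, so the groups overlapped. Polr2b, its partner in the active centre, was above 0 only in knock-in library 2 at 0.0863 FPKM and wild-type library 2 at 0.191 FPKM. Polr3b, the second largest subunit of polymerase III, was above 0 in knock-in library 1 at 0.102 FPKM and in wild-type libraries 1 and 2 at 0.315 and 0.0213 FPKM. Polr1b was above 0 in 1 library, knock-in library 3, at 0.0519 FPKM.

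Among these genes, longer annotated transcripts had lower levels. Across the 28 genes, the Spearman correlation of mean FPKM with median transcript length in GENCODE was -0.51. These genes share the same 6 libraries and are not independent replicates. Across 11789 genes above 0 with a known length the correlation was -0.19. The sets are unlike: the 28 include the 3 genes listed at 0, all of at least 2500 bases, and the 11789 leave such genes out. Of the 9 subunit genes with a median transcript of at least 2500 bases, 1 reached the testing limit, and that was Polr3k. Of the 19 shorter ones 10 did. FPKM is already divided by length, and the transcript models the authors used may differ from these.

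**Figure D1:**
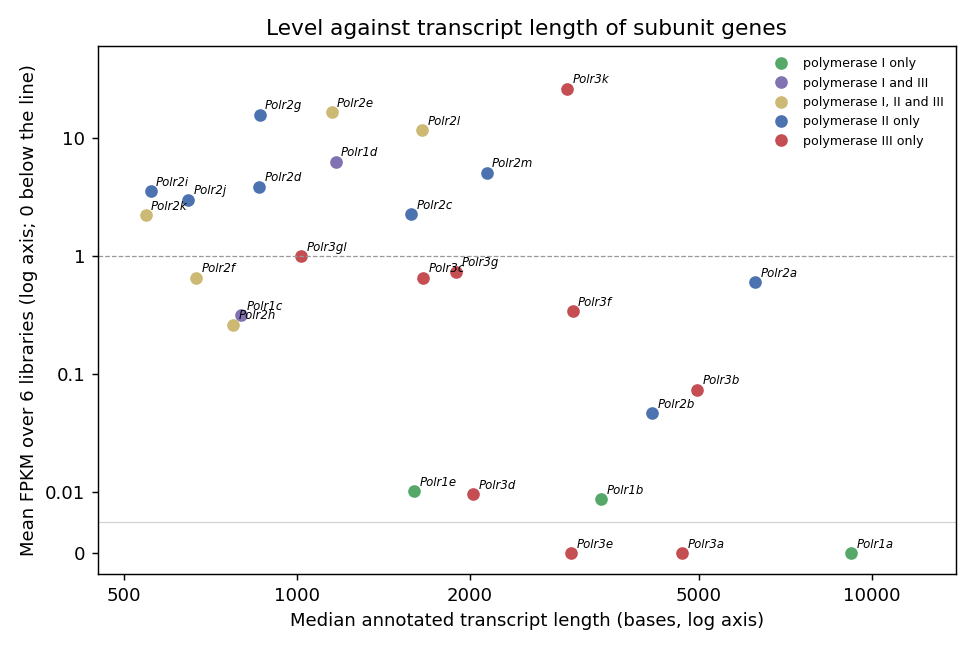
Mean FPKM over the 6 libraries (vertical log axis, with genes at 0 drawn below the thin line) against median annotated transcript length in bases (horizontal log axis), one point per subunit gene except 1 that is not reported here, coloured by polymerase; the dashed line marks the testing limit of 1 FPKM. Most genes above the limit have short transcripts, at the upper left, but other short ones lie below it. The large catalytic subunits lie below 1 FPKM at the right, and Polr3k stands highest.

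Summed over the 28 genes, subunit mRNA amounted to 108, 120 and 125 FPKM in knock-in libraries and 80.5, 80.9 and 89.6 FPKM in wild-type libraries. Every knock-in library lay above every wild-type library in this sum. The same held for the total FPKM of all genes. That total was 856863, 758381 and 780235 in knock-in libraries and 708432, 641278 and 644227 in wild-type libraries. As a share of total FPKM the subunit sum was 0.0126%, 0.0159% and 0.0160% in knock-in libraries and 0.0114%, 0.0126% and 0.0139% in wild-type libraries. On that scale the groups overlapped. Only knock-in library 1 lay within the wild-type range there, and haemoglobin genes made up 20.4% of its total. The part of haemoglobin in that overlap was not tested. The sums by polymerase that follow are in FPKM and are not scaled to the total. The 8 genes of polymerase II only summed to 39.5 ± 5.85 FPKM in knock-in and 28.4 ± 3.93 FPKM in wild-type platelets, and the 5 shared genes to 36.4 ± 4.66 FPKM in knock-in and 26.0 ± 3.58 FPKM in wild-type platelets (SD, n = 3 each). The 10 genes of polymerase III only summed to 35.8 ± 1.61 FPKM in knock-in and 22.1 ± 3.97 FPKM in wild-type platelets (SD, n = 3 each). The polymerase III sum was mostly Polr3k, which held 90.5%, 91.0% and 93.8% of it in knock-in and 92.9%, 78.7% and 90.9% in wild-type libraries. Without Polr3k the other 9 genes summed to 2.95 ± 0.630 FPKM in knock-in and 2.78 ± 1.83 FPKM in wild-type platelets (SD, n = 3 each), which did not differ beyond the spread. The 2 genes shared by I and III summed to 5.96 ± 2.30 FPKM in knock-in and 7.17 ± 2.42 FPKM in wild-type platelets (SD, n = 3 each), and the 3 genes of polymerase I only never exceeded 0.0609 FPKM in sum.

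**Figure D2:**
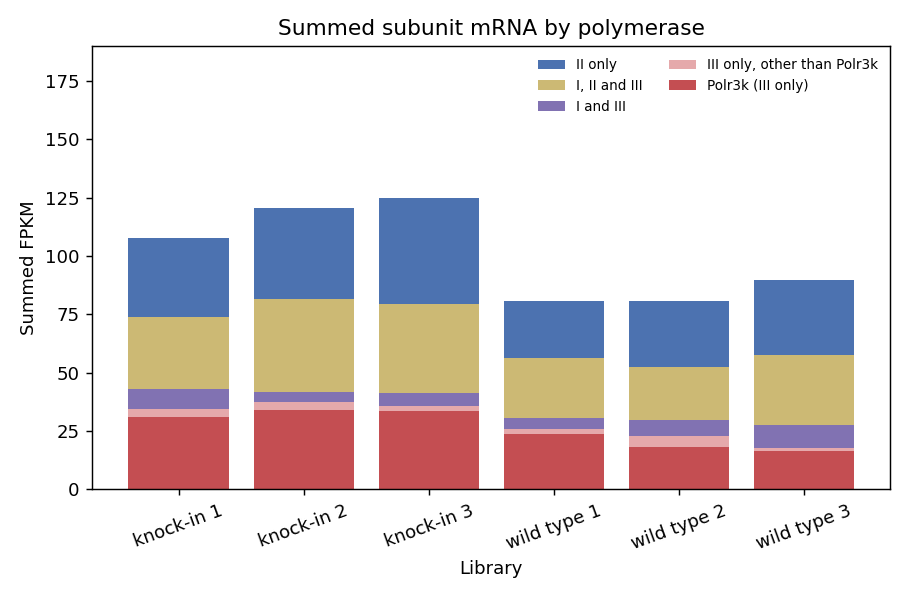
Summed FPKM of the subunit genes in each library (vertical axis), stacked by the polymerase they serve, with Polr3k drawn apart; the 3 genes of polymerase I only, at most 0.0609 FPKM in sum, are not drawn. The knock-in bars reach 108 to 125 FPKM and the wild-type bars 80.5 to 89.6 FPKM.

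Between the genotypes, 2 of the 11 tested subunit genes rose in knock-in platelets and 0 fell (limma, Benjamini-Hochberg adjusted p under 0.05 over all 4859 tested genes). They were Polr3k and Polr2j, of which Polr2j reached the testing limit only through its knock-in level. Over all tested genes 4.36% were called higher and 3.99% lower, 8.36% in all. The median log2 fold change was 0.42 for the 11 genes and -0.01 for all tested genes, and 9 of the 11 had a positive value, against 48.5% of all tested genes. Without Polr2j, 8 of the other 10 were positive, their median was 0.36 and 1 was called. Shorter transcripts had higher log2 fold changes, with a Spearman correlation with length of -0.50 over the 11 members. Over 4694 tested genes with a known length it was -0.19. The part of length in the shift of the members was not tested. After removal of the length trend Polr3k kept its call (limma adjusted p = 0.0221) and Polr2j lost it (0.0628). Values did not overlap between the groups for 3 of the 11, all higher in the knock-in (Polr3k, Polr2j and Polr2l). Of all tested genes, 14.9% were higher without overlap and 30.7% were without overlap in either direction. Log2 fold changes are on the log2(FPKM + 1) scale and understate the change of genes with low values. Both calls were lost without knock-in library 2 or 3 and without wild-type library 2 or 3, and none of the 11 genes then passed, while 0 to 113 of all tested genes did. In those fits 2 to 4 members had an unadjusted limma p under 0.05.

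**Figure D3:**
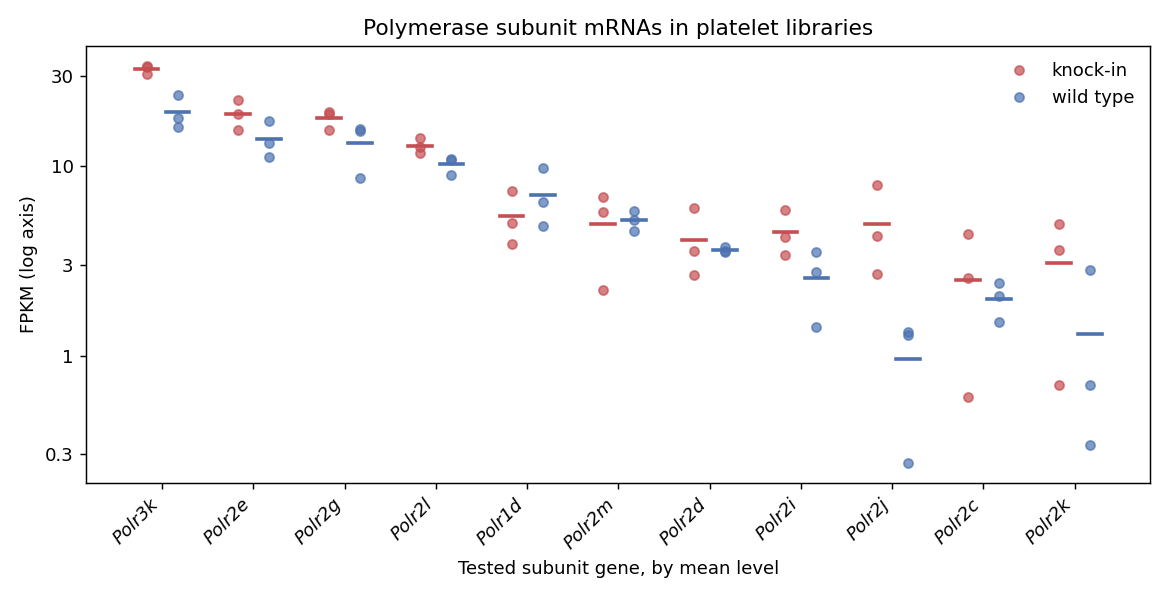
FPKM (vertical log axis) of the 11 tested subunit genes in each library, knock-in at the left and wild type at the right of each gene, with points for libraries and bars for group means. Polr3k, Polr2l and Polr2j show no overlap between the groups, and the other 8 genes do overlap.

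Polr3k, which encodes the small zinc-binding subunit of polymerase III that acts in transcript cleavage and termination, was the most abundant member and rose in the knock-in. It measured 31.0, 34.1 and 33.5 FPKM in knock-in libraries, against 23.8, 18.0 and 16.2 FPKM in wild-type libraries. The knock-in values lay close together and every one lay above the highest wild-type value. The means were 32.9 ± 1.64 FPKM in knock-in and 19.3 ± 3.97 FPKM in wild-type platelets (SD, n = 3 each), a log2 fold change of 0.75 (SE 0.17, limma adjusted p = 0.0295) or 1.67-fold by the means of FPKM + 1. Polr3k ranked 1227 of all symbols by mean level, above 90.0% of the 12260 genes above 0 in any library. It was the highest subunit mRNA in 5 of the 6 libraries, and in wild-type library 3 Polr2e was higher at 17.4 FPKM. The adjusted p ran from 0.00646 to 0.114 over 17 alternatives. The call was lost when every gene above 0 was tested (0.0889), when limma used no variance trend (0.0759), and on leaving out knock-in library 2 (0.105) or 3 (0.107) or wild-type library 2 (0.114) or 3 (0.101). Without the library richest in haemoglobin in each group, knock-in 1 and wild type 1, the log2 fold change was 0.94 (limma adjusted p = 0.00646). That smaller fit leaves out the lowest knock-in value of Polr3k, 31.0 FPKM, and its highest wild-type value, 23.8 FPKM. It called 728 of 4838 tested genes, against 406 of 4859 with all libraries.

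Polr2j, which encodes the subunit that joins Polr2c in the assembly heterodimer of polymerase II, had the largest fold change among the 11 tested members. It measured 4.30, 2.70 and 7.96 FPKM in knock-in libraries, against 0.271, 1.28 and 1.33 FPKM in wild-type libraries. All knock-in values were higher than all wild-type values, with a wide spread in the knock-in and 1 wild-type library far below the others. The means were 4.99 ± 2.69 FPKM in knock-in and 0.960 ± 0.597 FPKM in wild-type platelets (SD, n = 3 each), with a log2 fold change of 1.57 (SE 0.39, limma adjusted p = 0.0445). The wild-type mean is below the testing limit, so the gene entered the test through its knock-in level. By the 2-fold limit that the study's design names, applied to the means of FPKM + 1, Polr2j was 3.05-fold higher and was the 1 member of 11 past it, where 1.44% of all tested genes were past it as higher and 3.11% in either direction. On a transcript of 646 bases 1 fragment is worth about 0.165 to 0.197 FPKM, so the values correspond to roughly 22, 16 and 48 fragments in knock-in libraries and 1.6, 7.8 and 7.8 in wild-type libraries. The adjusted p ran from 0.0393 to 0.160 over 16 alternatives, and 5 of them kept the call. It was lost among others with a pseudocount of 0.1 (log2 fold change 2.36, 0.0575) or 5 (0.72, 0.0558), without the haemoglobin-rich library of each group (1.32, 0.0782) and without wild-type library 1 (1.28, 0.104). Exons of Polr2j share 176 bases with Lrwd1 on the opposite strand, which was listed at 0 in 5 libraries and at 0.158 FPKM in wild-type library 1.

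**Figure D4:**
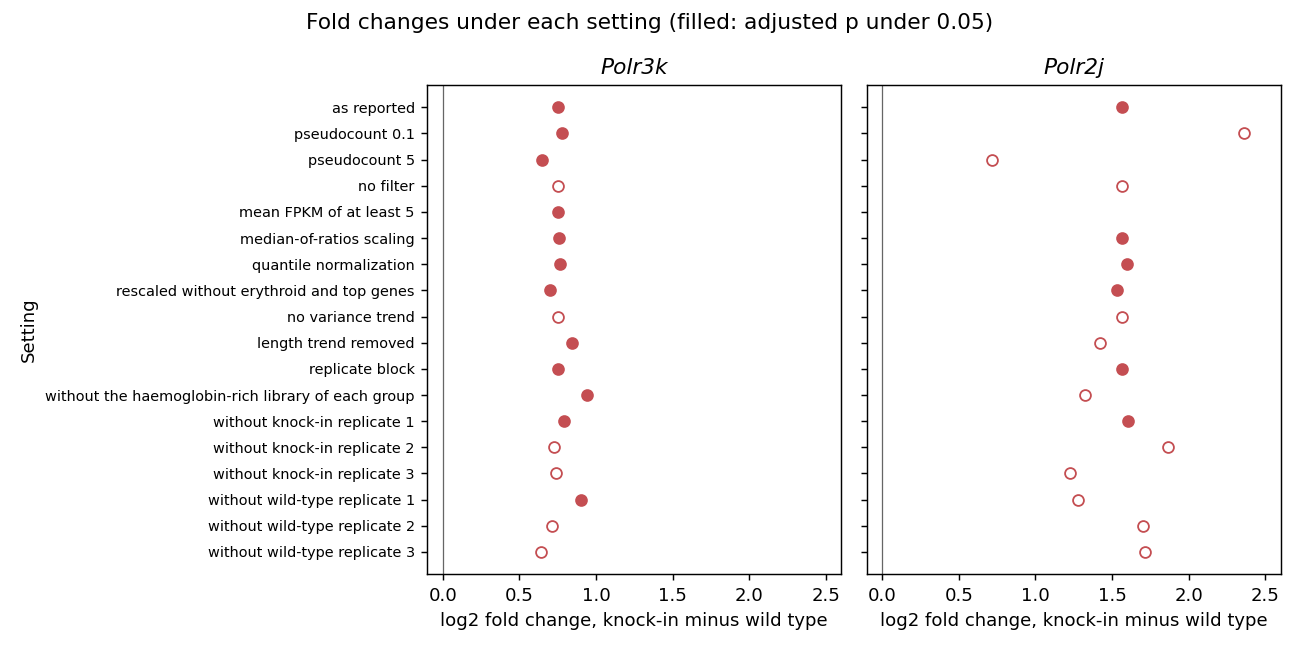
Log2 fold change of FPKM (knock-in minus wild type, horizontal axis) of Polr3k (left) and Polr2j (right) under each setting (vertical axis), filled where the limma adjusted p is under 0.05. Both genes stay above 0 in every setting drawn, Polr3k between 0.64 and 0.94 and Polr2j between 0.72 and 2.36.

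The sequence before the start of each of these genes is shown because they are the members that passed the test. Both lie on the plus strand of GRCm38.p6 and the bases, from RefSeq, end just before the first annotated start, Polr2j at chr5:136116441-136116630 and Polr3k at chr2:181864110-181864336. The genes extend from 136116631 to 136122947 and from 181864337 to 181870830 in GENCODE M21. Capitals mark the motif matches named below.
Polr2j: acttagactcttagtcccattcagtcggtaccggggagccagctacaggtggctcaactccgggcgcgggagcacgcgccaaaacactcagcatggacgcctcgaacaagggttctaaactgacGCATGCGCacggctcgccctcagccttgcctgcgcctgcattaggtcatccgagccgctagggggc
Polr3k: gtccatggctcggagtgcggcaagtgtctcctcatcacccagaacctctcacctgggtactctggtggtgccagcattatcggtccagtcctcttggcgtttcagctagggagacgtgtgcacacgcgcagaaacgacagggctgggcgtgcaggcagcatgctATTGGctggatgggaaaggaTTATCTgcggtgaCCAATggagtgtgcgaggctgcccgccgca
The capitals in Polr2j are the NRF1 core GCATGCGC, and those in Polr3k are a GATA site (AGATAA, here on the opposite strand) and a pair of CCAAT boxes (CCAAT) on opposite strands. A set of 7 short motifs were searched on both strands of windows of 300 bases, 250 before and 50 after each RefSeq start, which 22 of the 28 members have. The NRF1 core stood in 2.71% of all 32851 windows and in 2 of the 22 members, Polr2j and Polr2b. The GATA site stood in 11.2% of all windows and in 1 member, Polr3k, and the CCAAT box in 37.4% of windows and in 7 members. The other motifs were the TATA box TATAAA (13.6% of windows, 2 members), the GC box GGGCGG (35.7%, 14 members), the ETS core CCGGAAG (8.86%, 7 members) and the E-box CACGTG (7.15%, 4 members). None of the 7 motifs overlaps another in the capitals above. Beyond the printed bases, the window of Polr2j also holds a CCAAT box, a GC box and an ETS core, and that of Polr3k a further CCAAT box.

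The 3 tested genes shared by all polymerases did not pass. Polr2e measured 15.7, 18.9 and 22.4 FPKM in knock-in and 11.2, 13.3 and 17.4 FPKM in wild-type libraries, and the groups overlapped (log2 fold change 0.42, SE 0.21, limma adjusted p = 0.245). Polr2l, a small zinc-binding subunit, measured 11.8, 12.7 and 14.2 FPKM in knock-in and 10.8, 8.99 and 11.0 FPKM in wild-type libraries. Its groups did not overlap, but the difference was small (log2 fold change 0.30, SE 0.17, limma adjusted p = 0.298). Polr2k, another small zinc-binding subunit, measured 3.63, 4.98 and 0.697 FPKM in knock-in and 2.85, 0.338 and 0.697 FPKM in wild-type libraries (log2 fold change 0.81, SE 0.55, limma adjusted p = 0.409). The log2 fold change of Polr2k was 0.45 or 1.35 on leaving out knock-in library 2 or 3, and 1.26 or 0.50 on leaving out wild-type library 1 or 2. Its libraries scattered widely within both groups, and a processed pseudogene, Polr2k-ps, is annotated, so its level is less certain. Pseudogenes of the other members are not listed here. Of the other shared genes, Polr2f was above 0 in knock-in libraries 2 and 3 at 2.94 and 0.310 FPKM and in wild-type library 1 at 0.654 FPKM. Polr2h reached at most 0.506 FPKM in knock-in and 0.696 FPKM in wild-type libraries.

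**Figure D5:**
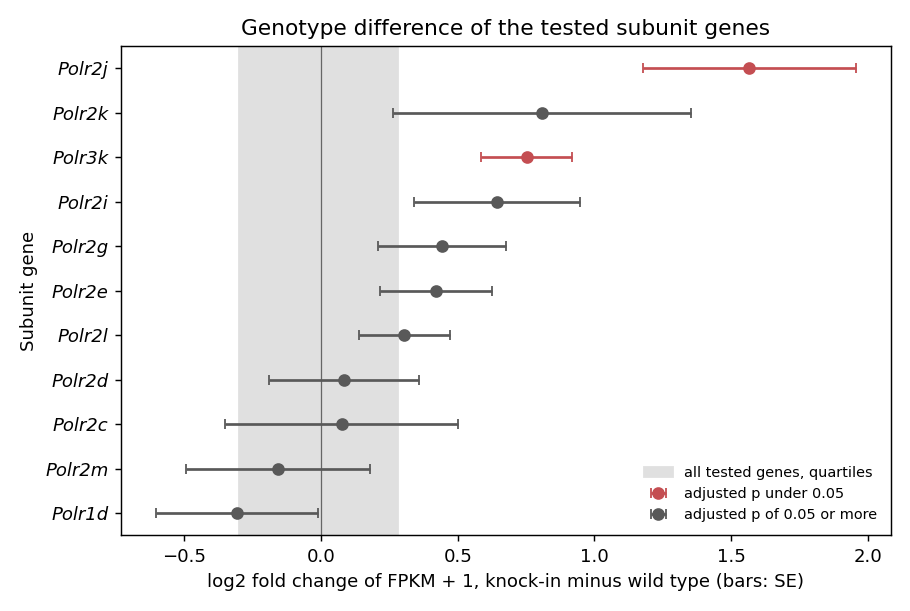
Log2 fold change of FPKM + 1 (knock-in minus wild type, horizontal axis) with its SE for the 11 tested subunit genes, red where the limma adjusted p is under 0.05, over a grey band for the quartiles of all tested genes. The genes run from -0.31 for Polr1d to 1.57 for Polr2j, and the band from -0.30 to 0.28.

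Among the remaining genes of polymerase II only, the stalk pair differed in level. Polr2g measured 15.6, 18.9 and 19.4 FPKM in knock-in and 8.74, 15.4 and 15.7 FPKM in wild-type libraries, with wild-type library 1 well below the rest. Its partner Polr2d measured 3.55, 6.03 and 2.66 FPKM in knock-in and 3.75, 3.59 and 3.51 FPKM in wild-type libraries, so that Polr2g was the higher of the pair in every library. Neither passed the test, with log2 fold changes of 0.44 for Polr2g (limma adjusted p = 0.280) and 0.08 for Polr2d (0.887). Without wild-type library 1 the value of Polr2g was 0.19, and Polr2d ran from -0.18 without knock-in library 2 to 0.29 without knock-in library 3. Polr2i, the zinc-binding subunit of polymerase II, measured 3.38, 4.25 and 5.86 FPKM in knock-in and 2.77, 1.41 and 3.55 FPKM in wild-type libraries (log2 fold change 0.64, SE 0.30, limma adjusted p = 0.230), or 0.38 without wild-type library 2. Only the lowest knock-in value and the highest wild-type value overlapped. Polr2i shares 325 exon bases with Tbcb on the opposite strand, a tubulin folding cofactor gene that fell in the knock-in (log2 fold change -0.87, limma adjusted p = 0.0298), and the library kit does not mark strand.

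Polr2c, the heterodimer partner of Polr2j, did not pass the test. It measured 4.37, 0.604 and 2.58 FPKM in knock-in and 2.42, 1.50 and 2.07 FPKM in wild-type libraries (log2 fold change 0.08, SE 0.43, limma adjusted p = 0.937). The knock-in libraries spanned the whole wild-type range, and the sign of the difference turned in 5 of 16 alternatives, with -0.31 or 0.56 on leaving out knock-in library 1 or 2. Polr2m encodes Gdown1, a protein that binds polymerase II and restrains it in the absence of Mediator. It measured 2.22, 5.75 and 6.85 FPKM in knock-in and 5.81, 4.58 and 5.22 FPKM in wild-type libraries (log2 fold change -0.16, limma adjusted p = 0.826), with knock-in library 1 lowest, and without that library the log2 fold change was 0.24, against -0.41 without knock-in library 3.

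In the counterpart heterodimer of polymerases I and III, Polr1d was measured and Polr1c hardly. Polr1d gave 7.43, 3.90 and 5.04 FPKM in knock-in and 4.84, 6.49 and 9.80 FPKM in wild-type libraries (log2 fold change -0.31, SE 0.30, limma adjusted p = 0.584), with overlapping groups. The log2 fold change of Polr1d was -0.52 or -0.13 on leaving out knock-in library 1 or 2, -0.52 or -0.072 on leaving out wild-type library 1 or 3, and -0.73 without both haemoglobin-rich libraries. Polr1c gave 1.07, 0.0941 and 0.358 FPKM in knock-in and 0.189, 0.179 and 0 FPKM in wild-type libraries, a mean below the testing limit.

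The other 9 genes of polymerase III only were all below the testing limit. The nearest to it was Polr3gl, with a mean of 0.996 FPKM over 6 libraries. Polr3gl and its paralog Polr3g encode alternative forms of a subunit in the subcomplex that recruits polymerase III to promoters. Polr3gl measured 0.866, 0.847 and 0.280 FPKM in knock-in and 0.885, 2.52 and 0.578 FPKM in wild-type libraries, and Polr3g 0.619, 1.78 and 0.966 FPKM in knock-in and 0.218, 0.828 and 0 FPKM in wild-type libraries. The groups overlapped for both paralogs. Polr3c and Polr3f, the partners of that subunit, averaged 0.651 ± 0.638 and 0.428 ± 0.252 FPKM in knock-in and 0.649 ± 0.567 and 0.248 ± 0.127 FPKM in wild-type platelets (SD, n = 3 each). Polr3d was above 0 in wild-type library 1 alone. Of the 17 genes below the limit, 14 were above 0 in at least 1 library, and none had groups without overlap.

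A few subunits carry symbols outside the rule. Crcp, which encodes a stalk subunit of polymerase III, measured 18.8, 21.9 and 15.8 FPKM in knock-in and 23.5, 14.5 and 18.7 FPKM in wild-type libraries (log2 fold change 0.00, limma adjusted p = 0.994), and the groups overlapped. Znrd1, the polymerase I counterpart of Polr2i and Polr3k, averaged 1.79 ± 0.800 FPKM in knock-in and 1.89 ± 0.0505 FPKM in wild-type platelets (SD, n = 3 each; limma adjusted p = 0.884). Twistnb stayed at or below 0.576 FPKM and Cd3eap was listed at 0 in all 6 libraries.

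Beyond the subunits under the rule, 144 other transcription genes were read from the same fit, of which 60 were tested. The 144 include the 4 subunits with other symbols, and the 60 include Crcp and Znrd1. Of the 60 tested, none rose and 1 fell, which is 1.67%, where 8.36% of all tested genes were called (4.36% higher and 3.99% lower). The median log2 fold change of the 60 was 0.03. The one that fell was Nelfcd, a subunit of the negative elongation factor that holds polymerase II near promoters. It measured 12.9, 11.2 and 11.0 FPKM in knock-in and 28.1, 28.1 and 24.1 FPKM in wild-type libraries, without overlap (log2 fold change -1.13, SE 0.15, limma adjusted p = 0.00794). The call was lost when limma used no variance trend (0.0623) and on leaving out knock-in library 3 (0.0507) or wild-type library 2 (0.0518). Genes that passed as higher in some alternatives, chosen after their values were seen, were Med21, the TFIID genes Taf9 and Taf11, and Pdrg1. Without knock-in library 1 they were Med21 and Taf11 (log2 fold changes 0.71 and 1.56), and without wild-type library 1 Taf9 (1.48). Over all libraries Taf11 averaged 2.29 ± 1.77 FPKM in knock-in and 0.324 ± 0.477 FPKM in wild-type platelets (SD, n = 3 each). The wild-type mean of Taf11 is below the testing limit, so that gene entered the test only through its knock-in level. Med21 and Taf9 also passed without the haemoglobin-rich library of each group (0.77 and 1.52). Pdrg1 passed at a mean FPKM of at least 5 (0.51).

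The most abundant gene of each group of transcription factors did not pass, and the counts of each group stand against the same 4.36% higher and 3.99% lower. Among 19 tested elongation genes (0 higher, 1 lower) it was Supt4a, a subunit of the elongation factor DSIF, at 155 ± 29.5 FPKM in knock-in and 168 ± 13.1 FPKM in wild-type platelets (SD, n = 3 each). Among 14 tested Mediator genes (0 higher, 0 lower) it was Med21, at 127 ± 24.8 FPKM in knock-in and 85.9 ± 7.84 FPKM in wild-type platelets (SD, n = 3 each; log2 fold change 0.54, limma adjusted p = 0.0699). Maf1, the repressor of polymerase III and the highest of 6 tested polymerase III factors (0 higher, 0 lower), averaged 100 ± 9.63 FPKM in knock-in and 109 ± 2.27 FPKM in wild-type platelets (SD, n = 3 each; limma adjusted p = 0.552). Gtf2e2, a subunit of the general factor TFIIE and the highest of 11 tested general factors of polymerase II (0 higher, 0 lower), averaged 66.1 ± 6.31 FPKM in knock-in and 53.7 ± 2.61 FPKM in wild-type platelets (SD, n = 3 each; limma adjusted p = 0.166). Of 6 tested assembly genes (0 higher, 0 lower) Pdrg1 was highest, at 39.6 ± 4.45 FPKM in knock-in and 27.5 ± 3.17 FPKM in wild-type platelets (SD, n = 3 each; limma adjusted p = 0.0652). Polymerase I factors had 1 tested gene, Taf1a (log2 fold change 0.12, limma adjusted p = 0.861), and mitochondrial transcription also 1, Tfb2m (0.48, 0.292), and neither passed. Polrmt, the single-subunit mitochondrial polymerase, was below the testing limit.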

How the data were processed

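Platelet RNA of 6 libraries was compared, 3 homozygous knock-in and 3 wild type, grouped by sample title. SMART-Seq HT cDNA and Nextera XT libraries were used, per the labels' protocols; neither kit marks strand. The authors deposited FPKM per gene symbol, 1 table a library. The submitters' processing notes name build mm10 with Cuffdiff 2.2.1, SAMtools 0.1.18, Bowtie2 2.2.8 and TopHat2 2.1.1; settings and annotation are not given in the sources used here. The labels do not say whether replicates were separate animals, so p-values measure the spread between these libraries, which may be technical.

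The 4859 genes that averaged 1 FPKM or more over the libraries were tested on the log2(FPKM + 1) scale in R 4.3.3 with limma 3.58.1, with genotype as its term, a variance trend and a two-sided test, Benjamini-Hochberg adjusted over all of them at 0.05. A single gene in 3 against 3 libraries cannot reach an exact p below 0.1. The test was tested on simulated data. Fragment depth was estimated from the commonest spacing of low values and is rough. Annotation was GENCODE M21, promoters RefSeq GRCm38.p6. Named genes were every member in full if called, past 2-fold or among the 12 most abundant, and called or most abundant list genes. Values of 1 member are not reported here, though counts and sums include it. The members and lists were chosen with earlier results of these data known. Alternatives covered pseudocount, filter, scaling, variance trend, transcript length, replicate block and left-out libraries.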

Additional observations from a re-analysis of the deposited data

How the results depend on the processing

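The count of all tested genes called, 406, became 107 with no filter, 0 without the variance trend (1197 at an unadjusted limma p under 0.05) and 728 without the haemoglobin-rich library of each group, and lay between 0 (without knock-in library 3; 994 at an unadjusted limma p under 0.05) and 610 with 1 library left out. The 2 subunit genes called became 1 with a pseudocount of 0.1 or 5, under the stricter filter (a mean of 5 FPKM or more), after removal of the length trend and without both haemoglobin-rich libraries. They became 0 with no filter or without the variance trend (2 at an unadjusted limma p under 0.05 in each), and lay between 0 and 2 with 1 library left out. The 1 subunit gene past the 2-fold limit became 2 with a pseudocount of 0.1 and without both haemoglobin-rich libraries, 0 with a pseudocount of 5 and 0 under the stricter filter, where Polr2j was not tested, and lay between 1 and 2 with 1 library left out. The 1 other transcription gene called became 2 under the stricter filter, 0 without the variance trend (14 at an unadjusted limma p under 0.05) and 3 without both haemoglobin-rich libraries, and lay between 0 and 3 with 1 library left out. The cause of these changes was not tested.

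The 9 tested subunit genes that did not pass stayed uncalled in all 149 alternative values, and 8 of these turned the sign. Polr2c turned to -0.020 with a pseudocount of 0.1 and -0.21 without both haemoglobin-rich libraries, and ran from -0.31 to 0.56 with 1 library left out. Polr2d ran from -0.18 to 0.29 with 1 library left out. Polr2m turned to 0.31 without both haemoglobin-rich libraries and ran from -0.41 to 0.24 with 1 library left out. The pseudocount moved Polr2k to 1.29 (0.1) or 0.35 (5), and a pseudocount of 5 moved Polr2i to 0.33, Polr1d to -0.20 and Polr2m to -0.068. Without both haemoglobin-rich libraries Polr2g was 0.28.

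Same-numbered libraries did not deviate together in every pair: the correlation of deviations from the group means across genes was 0.158, 0.0235 and 0.141 for numbers 1, 2 and 3, and knock-in library 2 correlated best with wild-type library 3 (0.0674). With the number as a replicate block 306 genes passed, and the same 2 subunit genes, Polr2j (limma adjusted p = 0.0393) and Polr3k (0.0492). By the rough depth few fragments stand behind Polr2k (1.7 to 24 a library) and Polr2j in wild-type libraries (1.6 to 7.8), which limits their precision.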
